A study of Mus musculus with 6 samples.

Results

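Neutrophil granule and alarmin transcripts were read in mouse left ventricle as 9 genes, chosen by name with earlier results of these data known. They were the alarmins S100a8 and S100a9, the granule proteins Ltf, Lcn2, Camp and Ngp, the secreted proteins Ptx3 and Retnlg, and the receptor Csf3r. All 15 probes annotated to them were taken, of 45281 probes on the array, which named 19057 genes. The study asked how the heart responds to pressure overload when the histone demethylase Kdm3a is missing, with the overload produced by transverse aortic constriction (TAC), a partial banding of the aorta. Total RNA of left ventricle was hybridised to 6 Illumina bead arrays, 2 of KO TAC, 1 of KO Sham, 2 of WT TAC and 1 of WT Sham. KO mice lacked Kdm3a in the whole body, WT mice were their controls, and sham mice underwent the operation without the band. The labels describe all 6 as male c57/BL6 mice, operated on at 6 to 8 weeks of age and harvested 3 weeks later. The study's text gives a later harvest and describes KO mice both on a mixed FVB and C57 background and as another line on C57 alone, without saying which was arrayed, and neither source says which part of Kdm3a was deleted. Separate animals were not stated for the replicates, so the p-values rest on array-to-array spread that may in part be technical.

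Neutrophils are made in bone marrow, where successive precursor stages fill primary, specific and gelatinase granules with antimicrobial proteins. S100a8 and S100a9 pair as calprotectin, an abundant cytosolic complex of neutrophils and monocytes that acts as an alarmin once it leaves the cell, through receptors such as Tlr4 and Ager. Lcn2 and Ptx3 occur in granules too, but inflamed endothelium, fibroblasts and macrophages also make them, whereas Ngp, Camp and Ltf transcripts are mainly those of marrow precursors.

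S100a8 and S100a9 are neighbouring genes on chromosome 3 in a cluster of S100 genes, Retnlg lies next to its relative Retnla on chromosome 16, and Camp, Ngp and Ltf are on chromosome 9 with other genes between them. RefSeq (GRCm38.p6) held a promoter window for all 9, from 250 bases before to 50 bases after the annotated start. The bases before the start are shown for the 5 genes that differed by over 15-fold between KO TAC and WT TAC, since their transcripts were high on the same 2 arrays. They run 5′ to 3′ along the gene, with capitals where a searched motif matched.
S100a8 (chr3:90668821-90669070, plus strand): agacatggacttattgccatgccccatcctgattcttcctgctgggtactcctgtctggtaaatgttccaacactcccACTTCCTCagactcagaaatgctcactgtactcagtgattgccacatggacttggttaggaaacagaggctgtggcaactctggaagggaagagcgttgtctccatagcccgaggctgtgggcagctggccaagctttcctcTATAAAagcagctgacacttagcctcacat
S100a9 (chr3:90695722-90695971, minus strand): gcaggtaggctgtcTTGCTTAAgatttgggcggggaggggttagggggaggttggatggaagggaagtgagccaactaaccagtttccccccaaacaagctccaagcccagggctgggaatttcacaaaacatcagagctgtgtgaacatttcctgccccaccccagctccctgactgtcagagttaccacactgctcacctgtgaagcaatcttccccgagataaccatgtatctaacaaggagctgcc
Lcn2 (chr2:32387740-32387989, minus strand): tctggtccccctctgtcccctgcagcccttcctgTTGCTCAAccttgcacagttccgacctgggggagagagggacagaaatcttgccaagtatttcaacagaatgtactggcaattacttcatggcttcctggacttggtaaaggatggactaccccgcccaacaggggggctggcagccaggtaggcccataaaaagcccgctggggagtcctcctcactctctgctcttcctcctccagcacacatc
Ptx3 (chr3:66219637-66219886, plus strand): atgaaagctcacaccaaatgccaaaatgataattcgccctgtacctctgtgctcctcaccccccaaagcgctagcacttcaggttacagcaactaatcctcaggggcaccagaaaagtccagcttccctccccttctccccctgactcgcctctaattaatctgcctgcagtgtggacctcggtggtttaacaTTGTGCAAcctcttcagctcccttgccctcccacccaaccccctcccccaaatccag
Retnlg (chr16:48872358-48872607, plus strand): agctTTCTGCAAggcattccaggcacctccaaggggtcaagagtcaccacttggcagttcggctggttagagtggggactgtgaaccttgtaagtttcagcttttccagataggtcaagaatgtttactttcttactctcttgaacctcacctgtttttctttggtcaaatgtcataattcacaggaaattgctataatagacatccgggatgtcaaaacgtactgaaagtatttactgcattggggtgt

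The windows were searched on both strands for motifs of factors known from myeloid and inflammatory genes, and a match describes the letters only. No motif was present in all 9 windows. The C/EBP letters TTGCNNAA matched in 6 of the 9 windows (S100a9, Lcn2, Ptx3, Retnlg, Ltf and Ngp), against 10.8% of all 32851 windows. Ngp held the motif at 2 places, with first bases 138 and 11 bases before the start. The PU.1 letters GAGGAAGT matched in S100a8 alone, on the opposite strand, 172 bases before the start, and in 3.2% of all windows. The NF-kB letters, GGGA and CC with 4 unspecified bases between them, matched in 3 windows (Ptx3, Camp and Csf3r) against 20.7% of all windows, and the Ptx3 and Camp matches lay at or past the start. The TATA box TATAAA matched in S100a8, 30 bases before the start, and in S100a9 at the start itself, against 13.6% of all windows. The neighbours S100a8 and S100a9 thus shared no matched motif at the same distance.

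Both WT TAC arrays differed from the other 4 over the whole transcriptome, with a correlation of 0.993 with each other and 0.917 to 0.931 with the rest, which correlated at 0.984 to 0.995 among themselves. A probe was read as above background when it exceeded the level of receptor probes taken as silent in heart, 149 to 155 units of intensity by array, and 33.0% to 35.4% of probes did. Of 4 Kdm3a probes, 1 was below background on all 6 arrays and 1 was above it on the 3 WT arrays only, at 137 and 143 in KO TAC, 129 in KO Sham, 296 and 264 in WT TAC and 292 in WT Sham. The other 2 were above background on all 6 arrays. They read 394 and 361 in KO TAC, 390 in KO Sham, 466 and 486 in WT TAC and 502 in WT Sham, and 231 and 222 in KO TAC, 196 in KO Sham, 299 and 313 in WT TAC and 336 in WT Sham, so both were lower on every KO array than on every WT array without falling to background. The Y-linked gene Eif2s3y was likewise below background on all 3 KO arrays (125 to 140) and at 956 to 1075 on the WT arrays, although all mice were labelled male. Kdm5d and Uty, also Y-linked, were above background on all 6 arrays but dim, at 162 to 192 and 149 to 195. Xist was above background on none. Eif2s3y therefore differed between genotypes beside every KO TAC vs WT TAC difference below, and its part in them was not tested. The WT TAC vs WT Sham differences lie within one genotype. Of 9 cardiomyocyte markers read, all 9 were above background on all 6 arrays. Their summed intensity was 214486 and 218973 in KO TAC, 216834 in KO Sham, 200088 and 187897 in WT TAC and 220090 in WT Sham. Of the 9, 3 were called higher in KO TAC than in WT TAC and none lower, against 21.5% and 19.5% of all genes.

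Transcripts of the alarmin and granule genes were high in WT TAC hearts and low in the other 3 groups. S100a8, S100a9 and Lcn2 were above background on all 6 arrays and were 29.3-fold, 25.8-fold and 15.4-fold lower in KO TAC hearts than in WT TAC. Ptx3 and Retnlg were above background in WT TAC only, at least 17.3-fold and 16.1-fold lower in KO TAC. Ltf, Ngp and Csf3r were also above background in WT TAC only, but barely, and Camp on 1 WT TAC array. KO TAC did not pass the test against KO Sham for any of them. In a bulk sample fewer cells of a type and less RNA per cell cannot be told apart.

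**Figure D1:**
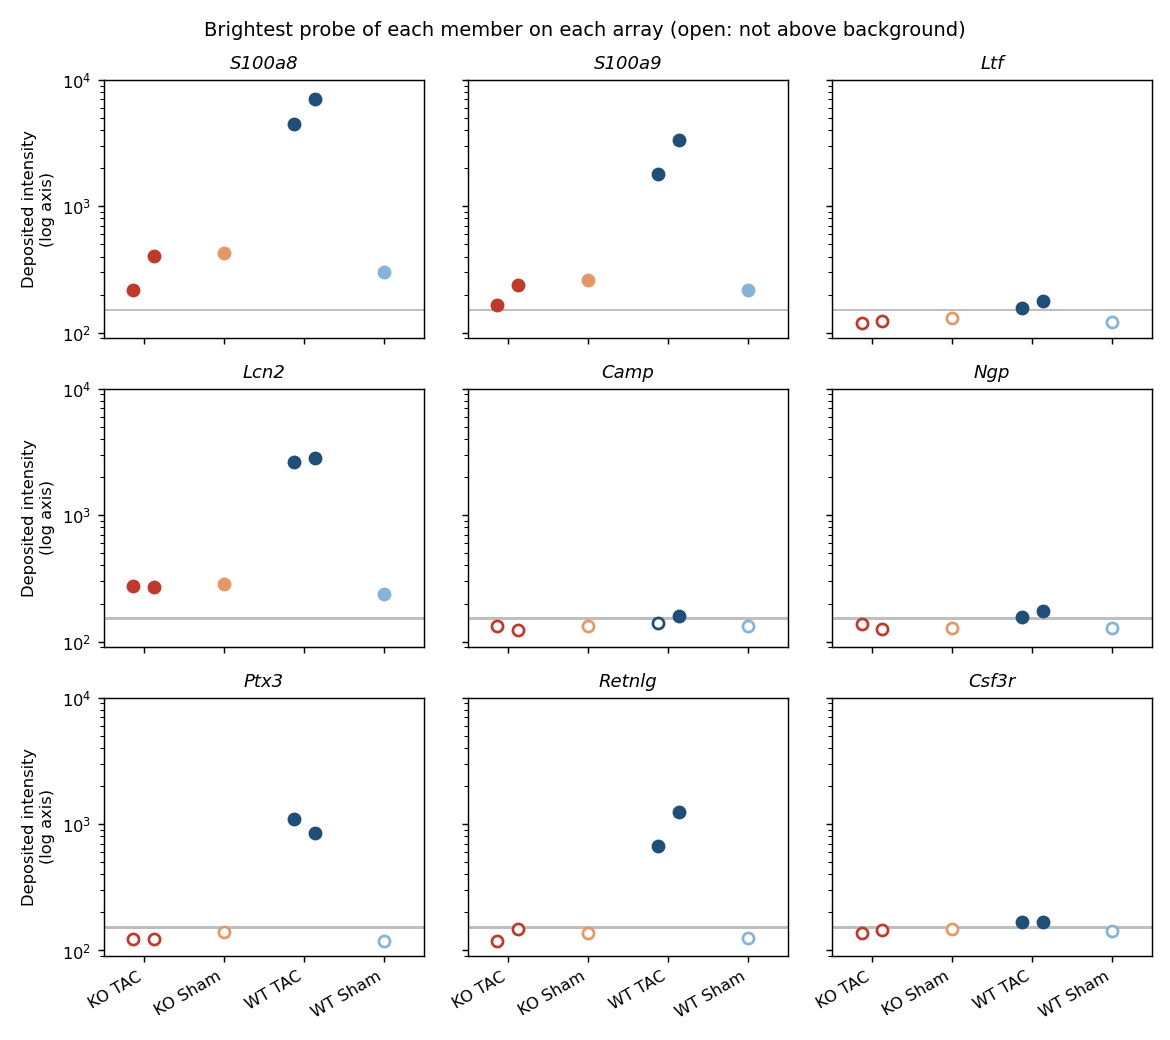
Deposited intensity (log axis) of the brightest probe of each of the 9 genes on each of the 6 arrays, by group, with open points for arrays where the probe was not above background and the grey band for the background levels of 149 to 155. Both WT TAC points lie above the other 4 in every panel, by a wide margin for S100a8, S100a9, Lcn2, Ptx3 and Retnlg and narrowly for Ltf, Camp, Ngp and Csf3r. The share of all genes with that order was not counted, and 5 of the 9 passed the filter only through WT TAC.

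S100a8 encodes the calcium-binding protein that, with S100a9, forms calprotectin. Its probe had an intensity of 218 and 407 in KO TAC, 425 in KO Sham, 4431 and 6985 in WT TAC and 303 in WT Sham. The lower WT TAC array was far above the highest of the other 4, and the KO TAC arrays spanned the WT Sham array. On the background-corrected log2 scale KO TAC was 29.3-fold lower than WT TAC (log2 difference -4.87 ± 0.45, SE, 2 arrays each, adjusted p = 0.000478, limma). WT TAC was 27.3-fold higher than WT Sham (4.77 ± 0.55, adjusted p = 0.00181). The size of the KO TAC vs WT TAC difference rested on which KO TAC array was used, at -4.17 without KO TAC array 1 and -5.57 without KO TAC array 2, and was -4.22 without background correction.

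S100a9 encodes the partner chain. Its intensity was 165 and 238 in KO TAC, 263 in KO Sham, 1800 and 3349 in WT TAC and 218 in WT Sham. As for S100a8, KO TAC array 1 was the lowest of the 6 and WT TAC array 2 the highest, and WT TAC did not overlap any other group. KO TAC was 25.8-fold lower than WT TAC (log2 difference -4.69 ± 0.42, adjusted p = 0.000454), and WT TAC was 20.4-fold higher than WT Sham (4.35 ± 0.52, adjusted p = 0.00201).

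Lcn2 encodes lipocalin 2, a specific granule protein that withholds iron from bacteria by binding their siderophores. Its intensity was 273 and 271 in KO TAC, 284 in KO Sham, 2611 and 2804 in WT TAC and 237 in WT Sham. Replicates lay close together in both TAC groups, unlike those of the S100 pair. KO TAC was 15.4-fold lower than WT TAC (log2 difference -3.95 ± 0.13, adjusted p = 1.71e-05), and WT TAC was 19.5-fold higher than WT Sham (4.28 ± 0.16, adjusted p = 5.99e-05).

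Ptx3 encodes a long pentraxin, a soluble pattern recognition protein of innate immunity. Its brighter probe had an intensity of 124 and 124 in KO TAC, 140 in KO Sham, 1100 and 845 in WT TAC and 118 in WT Sham. Its other probe read 125 and 143 in KO TAC, 139 in KO Sham, 802 and 658 in WT TAC and 123 in WT Sham. Both probes were thus above background in WT TAC alone, with WT TAC array 1 the higher, the reverse of the order in S100a8 and S100a9. KO TAC was at least 17.3-fold lower than WT TAC (fitted log2 difference -5.18 ± 0.18, adjusted p = 1.71e-05), a bound set against the background level. WT TAC was at least 16.8-fold higher than WT Sham (5.34 ± 0.22, adjusted p = 5.99e-05). Folds given as at least a value are bounds on the background-corrected scale only. Uncorrected intensities gave a log2 difference of -2.96 in KO TAC vs WT TAC and a larger offset of 50 gave -3.95, both smaller than that bound, with the call kept.

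Retnlg encodes a resistin-like protein found in mouse myeloid cells, mature neutrophils above all. Its intensity was 119 and 148 in KO TAC, 137 in KO Sham, 668 and 1238 in WT TAC and 126 in WT Sham. WT TAC array 2 was again the higher of the pair, and the other 4 arrays were below background. KO TAC was at least 16.1-fold lower than WT TAC (fitted log2 difference -4.70 ± 0.41, adjusted p = 0.000435), and WT TAC was at least 15.7-fold higher than WT Sham (5.01 ± 0.51, adjusted p = 0.00119). As for Ptx3, the KO TAC vs WT TAC difference was smaller than this bound without background correction (-2.78) and with an offset of 50 (-3.67).

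Ltf, Ngp and Camp encode specific granule proteins, the iron-binding lactoferrin, the cathelin-like neutrophilic granule protein and the precursor of the cathelicidin peptide. The brighter Ltf probe read 119 and 124 in KO TAC, 130 in KO Sham, 155 and 178 in WT TAC and 121 in WT Sham, and the other Ltf probe was below background on all 6 arrays. Ngp read 138 and 127 in KO TAC, 128 in KO Sham, 156 and 175 in WT TAC and 127 in WT Sham. Camp read 133 and 124 in KO TAC, 133 in KO Sham, 141 and 159 in WT TAC and 133 in WT Sham, above background on WT TAC array 2 only. In all 3 genes WT TAC array 2 was the highest, and the WT TAC values lay close to the background level. Ltf was at least 1.25-fold lower in KO TAC hearts than in WT TAC (fitted log2 difference -1.46 ± 0.20, adjusted p = 0.00209) and Ngp at least 1.23-fold (fitted -1.05 ± 0.22, adjusted p = 0.00998). Without WT TAC array 2 the Ngp difference no longer passed (adjusted p = 0.0712). Camp was not kept by the filter. Fitted without a filter, Camp differed by -0.77 ± 0.23 in KO TAC vs WT TAC (adjusted p = 0.087, with 17.8% of 19057 genes called there) and by 0.60 ± 0.28 in WT TAC vs WT Sham (adjusted p = 0.261, with 11.9% called).

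Csf3r encodes the receptor for granulocyte colony-stimulating factor, which drives neutrophil production and release. Of its 5 probes, 4 were below background on all 6 arrays. The remaining one read 136 and 144 in KO TAC, 147 in KO Sham, 168 and 169 in WT TAC and 142 in WT Sham. KO TAC was at least 1.30-fold lower than WT TAC (fitted log2 difference -0.82 ± 0.16, adjusted p = 0.00714). Without WT TAC array 2 this call was lost (adjusted p = 0.0521). Csf3r therefore rested on 1 dim probe of several, with WT TAC values just above background.

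All 8 genes kept by the filter were called lower in KO TAC hearts than in WT TAC, against 19.5% of all 9649 genes called lower and 21.5% called higher. In WT TAC vs WT Sham all 8 were called higher, against 15.3% of genes higher and 15.8% lower. Of the 8, 5 passed the filter only through the WT TAC arrays and so had to differ. The filter did not set the direction of S100a8, S100a9 and Lcn2, read on all 6 arrays. These too were chosen with earlier results of these data known, so their calls are no independent support. For Ltf, Ngp and Csf3r, WT TAC was at least 1.22-fold, 1.20-fold and 1.27-fold higher than WT Sham (adjusted p = 0.00627, 0.0148 and 0.0279). The Csf3r call in that comparison was lost without WT TAC array 1 (adjusted p = 0.0826), and both the Csf3r and the Ngp call without WT TAC array 2 (adjusted p = 0.11 and 0.0721).

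**Figure D2:**
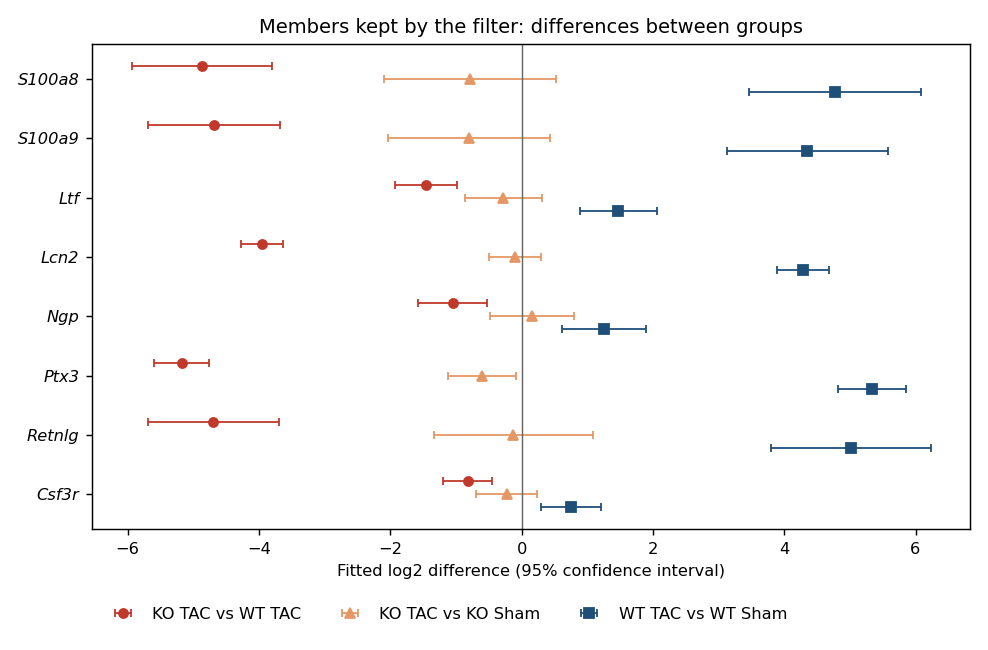
Fitted log2 differences (x axis) with 95% confidence intervals for the 8 genes kept by the filter, KO TAC vs WT TAC, KO TAC vs KO Sham and WT TAC vs WT Sham. Values between -5.18 and -0.82 belong to KO TAC vs WT TAC and those between 0.75 and 5.34 to WT TAC vs WT Sham, while intervals of KO TAC vs KO Sham reach 0 for all but Ptx3, which was below background in both of those groups.

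In KO hearts, TAC and sham did not differ by the test. Neither any of the 8 genes nor any other gene was called in KO TAC vs KO Sham (0% of genes, with 2.62% at an unadjusted p under 0.05). S100a8 differed by -0.79 (95% interval -2.09 to 0.52), S100a9 by -0.81 (-2.04 to 0.43) and Lcn2 by -0.10 (-0.49 to 0.29). The intervals of the S100 pair are wide enough to hold a change of over 2 log2 units downward, while that of Lcn2 is narrow. The other 5 genes were below background in both KO groups, where a fitted difference has no readable level behind it, Ptx3 (-0.60, unadjusted p = 0.0286) included.

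KO Sham and WT Sham were 1 array each, so their difference borrowed its spread from the TAC arrays. None of the 8 was called, where 0.0622% of genes were called and 7.97% had an unadjusted p under 0.05. S100a8 read 425 in KO Sham and 303 in WT Sham, S100a9 263 and 218, and Lcn2 284 and 237, with log2 differences of 0.69, 0.47 and 0.43. The lowest adjusted p among the 8 was 0.533.

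The effect of TAC was tested as a difference between genotypes, TAC against sham in KO minus TAC against sham in WT. It was called lower for 6 of the 8, against 8.37% of genes lower and 5.62% higher, namely Ptx3 (-5.94 ± 0.30), S100a8 (-5.56 ± 0.77), S100a9 (-5.16 ± 0.73), Retnlg (-5.14 ± 0.72), Lcn2 (-4.38 ± 0.23) and Ltf (-1.75 ± 0.35), with adjusted p between 0.00046 and 0.0231. Csf3r (-0.98 ± 0.27, adjusted p = 0.0595) and Ngp (-1.09 ± 0.38, adjusted p = 0.104) did not pass. This contrast uses the same WT TAC arrays as the 2 above. Ptx3, Retnlg and Ltf, kept only through WT TAC, had to lean this way. Their values also include a KO TAC vs KO Sham difference between groups below background. Among those called, the filter left the direction open for S100a8, S100a9 and Lcn2 alone, which were also chosen with earlier results known. The Ltf call was lost without WT TAC array 2 (adjusted p = 0.0526), without background correction (0.0808) and without a filter (0.0747), and the S100a9 call without a filter (0.0509). Ngp passed without KO TAC array 1 (adjusted p = 0.0427) and Csf3r without KO TAC array 2 (adjusted p = 0.0298).

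The genes differed in how far apart the 2 arrays of a group lay. In KO TAC, array 2 exceeded array 1 by 1.40 log2 units for S100a8 and 1.11 for S100a9, and by 1.02 for Retnlg, which was below background on both, beyond the 95th percentile of absolute differences over all genes there (0.62). In WT TAC, array 2 exceeded array 1 by 0.67 for S100a8, 0.94 for S100a9, 1.01 for Retnlg and 0.53 for Ltf, beyond that group's 95th percentile of 0.52. Lcn2 stood at -0.01 in KO TAC and 0.11 in WT TAC, within the median absolute differences of 0.17 and 0.16, and Ptx3 ran the other way in WT TAC at -0.43. Within WT TAC the S100 pair, Retnlg and Ltf were thus all higher on array 2, while Lcn2 was nearly equal on both arrays.

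**Figure D3:**
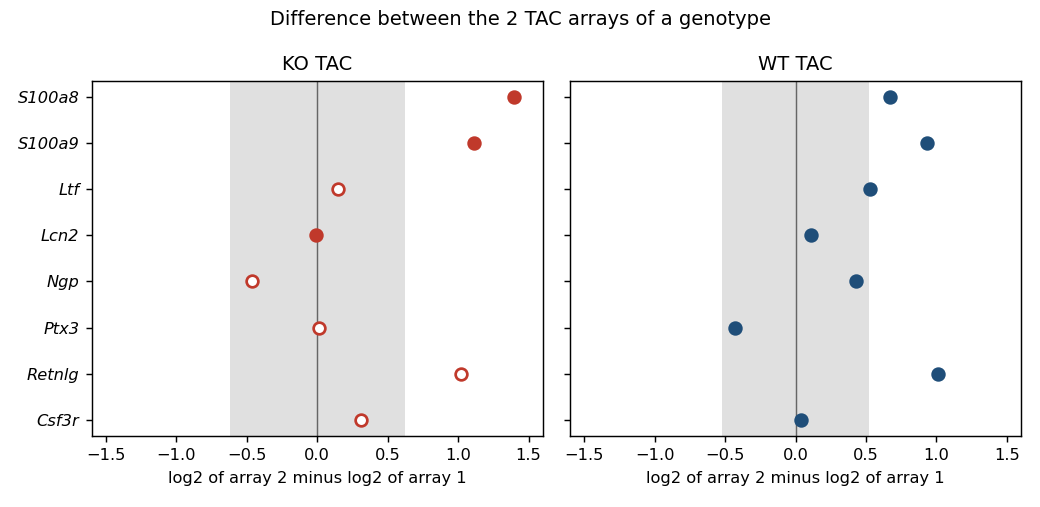
Difference between array 2 and array 1 (log2, x axis) within KO TAC and within WT TAC for the 8 genes kept by the filter, with open points where 1 or both arrays were not above background and grey for the 95th percentile of absolute differences over all genes. S100a8, S100a9 and Retnlg lie outside the grey band in both groups, at 1.40, 1.11 and 1.02 in KO TAC and 0.67, 0.94 and 1.01 in WT TAC, Ltf lies at its edge in WT TAC (0.53), and Lcn2 lies near 0 in both.

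Granule genes outside the 9 were mostly dim. For all lists and markers below, 19.5% of all genes were called lower and 21.5% higher in KO TAC vs WT TAC. In WT TAC vs WT Sham 15.3% were called higher and 15.8% lower. Genes kept through WT TAC alone had to differ, so they weigh on the counts and medians of their lists. Of 8 other primary granule genes on the array, 3 were kept, and 1 was called lower in KO TAC hearts than in WT TAC, Serpinb1a, an inhibitor of neutrophil serine proteases, at least 1.66-fold lower (adjusted p = 0.00252) and above background in WT TAC only. The lysozymes Lyz1 and Lyz2 were bright on all arrays and differed by 0.02 and 0.19. The defining primary granule enzymes Mpo, Elane, Prtn3 and Ctsg were below background on all 6 arrays. Of 20 other specific and gelatinase granule genes, 10 were kept, 5 of them through WT TAC alone, and 7 were called lower in KO TAC and none higher (median of the 10, -1.45, against 0.04 over all genes).

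Anxa1, an anti-inflammatory annexin, was above background on all 6 arrays, with 177 and 180 in KO TAC, 173 in KO Sham, 336 and 348 in WT TAC and 159 in WT Sham, and was 3.18-fold lower in KO TAC (adjusted p = 0.000289). The protease inhibitor Slpi read 124 and 124 in KO TAC, 138 in KO Sham, 215 and 315 in WT TAC and 131 in WT Sham, at least 3.09-fold lower in KO TAC (adjusted p = 0.000809). Chil3, a chitinase-like protein, and Pglyrp1, which binds bacterial cell wall, were at least 1.31-fold and 1.38-fold lower (adjusted p = 0.0007 and 0.0011). Mmp8 and Olfm4, also of these granules, were below background on all 6 arrays.

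Among 14 neutrophil surface receptors on the array, 8 were kept, 4 of them through WT TAC alone, and 5 were called lower in KO TAC hearts than in WT TAC and none higher (median -1.49). Cd14, a coreceptor for bacterial lipopolysaccharide shared with macrophages, read 239 and 234 in KO TAC, 232 in KO Sham, 2835 and 2862 in WT TAC and 194 in WT Sham, and was 20.7-fold lower in KO TAC (adjusted p = 1.54e-05). The lectin receptor Clec4d, the decoy receptor Il1r2 and the formyl peptide receptor Fpr2, all kept through WT TAC alone, were at least 8.60-fold, 4.58-fold and 3.27-fold lower (adjusted p = 6.84e-05, 0.00018 and 0.000561). The integrin chains Itgam and Itgb2, which neutrophils carry in abundance, were below background on all 6 arrays.

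Ligands that make, mobilise or attract neutrophils went both ways. Of 14 on the array, 8 were kept, 4 through WT TAC alone, and 5 were called lower and 2 higher in KO TAC than in WT TAC (median -1.82). The chemokine Cxcl1 read 198 and 189 in KO TAC, 190 in KO Sham, 3346 and 2783 in WT TAC and 158 in WT Sham, 32.8-fold lower in KO TAC (adjusted p = 1.54e-05). Cxcl2, which binds the same receptor Cxcr2, and the cytokines Il6 and Il1b were at least 5.83-fold, 11-fold and 4.27-fold lower (adjusted p = 2.29e-05, 7.9e-05 and 0.000478). Those called higher, Cxcl12 and Csf1, were named after their values were seen. Cxcl12, which retains neutrophils in marrow, read 5974 and 6139 in KO TAC, 6038 in KO Sham, 2769 and 2800 in WT TAC and 7397 in WT Sham, 2.22-fold higher in KO TAC than in WT TAC (adjusted p = 0.00107). Csf1 was 1.40-fold higher (adjusted p = 0.0288). In WT TAC vs WT Sham, 5 ligands were called higher and 1, Cxcl12, lower. The endothelial selectin Selp, on which leukocytes roll, read 145 and 142 in KO TAC, 158 in KO Sham, 954 and 800 in WT TAC and 128 in WT Sham, and its KO TAC level was below that of WT TAC by at least 15.5-fold (adjusted p = 2.23e-05). Its relative Sele was above background in WT TAC alone and at least 4.22-fold lower in KO TAC (adjusted p = 3.88e-05).

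**Figure D4:**
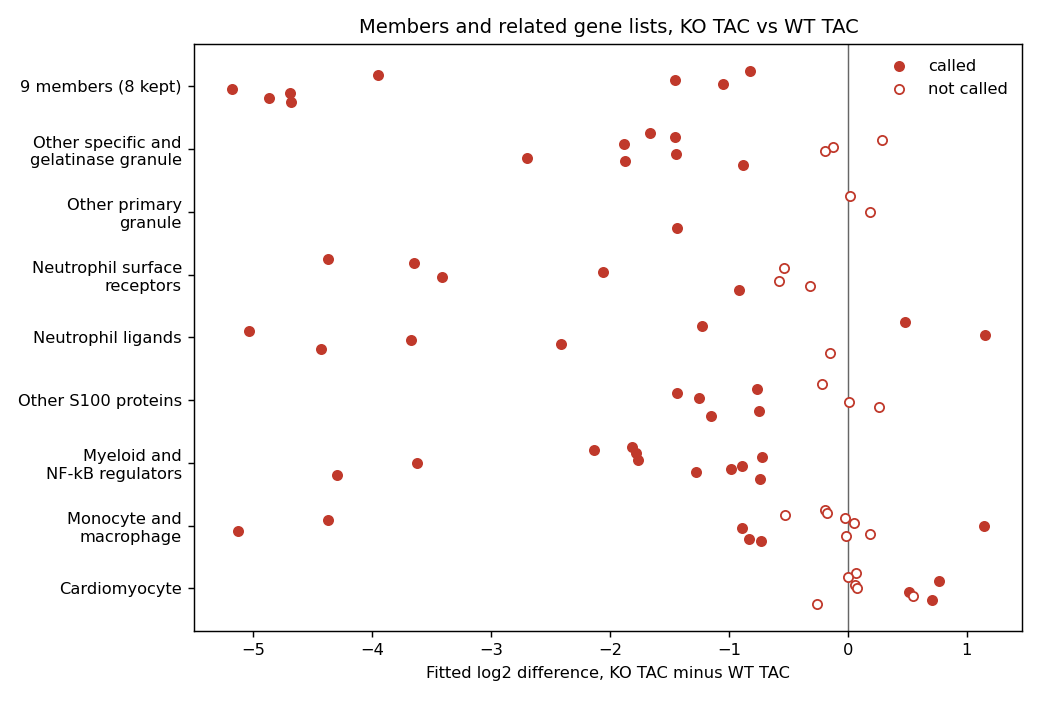
Fitted log2 differences, KO TAC minus WT TAC (x axis), for the 8 kept genes of the 9 and for the kept genes of 8 other lists (y axis: specific and gelatinase granule, primary granule, surface receptor, ligand, S100, transcriptional regulator, macrophage and cardiomyocyte genes), filled where called at an adjusted p under 0.05 and open where not. Most filled points lie below 0, the exceptions in these lists being the ligands Cxcl12 and Csf1, the macrophage gene Cx3cr1 and 3 cardiomyocyte genes, and S100a8, S100a9, Ptx3, Retnlg and Lcn2 lie at -3.95 or below.

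Relatives of the 9 split. The list of other S100 genes held 14 on the array, counting S100pbp, which encodes an S100-binding protein and was not kept. Of the 14, 8 were kept, none of them through WT TAC alone. Among these, 5 were called lower in KO TAC hearts than in WT TAC and none higher (median -0.76). S100a11 read 3562 and 3484 in KO TAC, 3591 in KO Sham, 8490 and 10277 in WT TAC and 3035 in WT Sham, 2.70-fold lower in KO TAC (adjusted p = 0.000814). S100a6, S100a13 and S100a10, which like S100a11 are widely expressed outside leukocytes, were 2.22-fold, 2.38-fold and 1.70-fold lower (adjusted p = 0.00134, 0.00144 and 0.00493). S100a1, the S100 protein of heart muscle, was bright on all 6 arrays and differed by -0.22 (adjusted p = 0.234). S100a7a, which adjoins S100a8, was below background on all 6 arrays.

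Retnla, the neighbour of Retnlg and known from macrophages, moved opposite to it. Retnla read 215 and 277 in KO TAC, 285 in KO Sham, 131 and 121 in WT TAC and 241 in WT Sham, so it was below background in WT TAC only, and it was at least 3.01-fold higher in KO TAC than in WT TAC (adjusted p = 0.000556) and at least 2.98-fold lower in WT TAC than in WT Sham (adjusted p = 0.00196). Trf, the plasma iron carrier related to Ltf, was 3.49-fold lower in KO TAC hearts than in WT TAC (adjusted p = 0.00278). Of the 15 genes of this list of relatives, receptors and selectins, 6 were kept, 1 through WT TAC alone, with 4 lower and 1 higher in KO TAC. Of 12 receptors, partners and other alarmins on the array, 7 were kept, with 3 lower and 1 higher (median -0.24). The alarmin receptor Tlr2 was 2.19-fold lower (adjusted p = 0.00196), the alarmin Il33 3.20-fold lower (adjusted p = 0.00707) and the adaptor Myd88 1.45-fold lower (adjusted p = 0.0205). Bsg, a receptor of S100A9 in human cells, was at least 1.18-fold higher (adjusted p = 0.0152). The calprotectin receptor Tlr4 differed by -0.24 (adjusted p = 0.244), and Ager was below background on all 6 arrays.

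Of 15 myeloid and NF-kB regulators on the array, 11 were kept, 1 of them through WT TAC alone, and all 11 were called lower in KO TAC hearts than in WT TAC (median -1.77). In WT TAC vs WT Sham 9 were called higher and none lower. Socs3, the feedback inhibitor of cytokine receptors, read 267 and 272 in KO TAC, 265 in KO Sham, 3213 and 3499 in WT TAC and 232 in WT Sham, 19.6-fold lower in KO TAC (adjusted p = 1.54e-05). Nfkbiz, an atypical IkB protein needed for Lcn2 induction in mouse macrophages, was 12.4-fold lower (adjusted p = 6.84e-05), the NF-kB cofactor Bcl3 at least 3.30-fold (adjusted p = 0.000259) and Cebpd 3.43-fold (adjusted p = 0.000277). The granulocyte factors Spi1, Cebpe and Gfi1 were below background on all 6 arrays, and Cebpa too.

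Some markers of other cells moved with these genes and others did not, and their part in the differences was not tested. Of 9 neutrophil markers on the array, 8 were above background on some array and 2 (S100a8 and S100a9) on all, and Mmp8 on none. Their summed intensity was 1295 and 1598 in KO TAC, 1633 in KO Sham, 7917 and 12747 in WT TAC and 1433 in WT Sham, and 4 of the 9, which make up most of the WT TAC sums, are among the genes described here. The other 5 (Cxcr2, Il1r2, Mmp8, Mmp9 and Trem1) summed to 656 and 662 in KO TAC, 661 in KO Sham, 851 and 1006 in WT TAC and 643 in WT Sham. Of these 5, 3 were tested, Il1r2 was lower in KO TAC, and Mmp9 (-0.19, adjusted p = 0.309) and Trem1 (-0.32, adjusted p = 0.235) did not pass. For 15 monocyte and macrophage markers, of which Ccr2 alone was below background throughout, the sum was 7972 and 9571 in KO TAC, 9155 in KO Sham, 20765 and 27665 in WT TAC and 6758 in WT Sham. Of the 13 of them tested, 5 were lower and 1 higher in KO TAC than in WT TAC. Most of the rise of the sum in WT TAC lay in Lgals3 and Cd14. Lgals3 read 439 and 437 in KO TAC and 9139 and 15279 in WT TAC, and Cd14 239 and 234 against 2835 and 2862. Lgals3 was 35-fold lower in KO TAC, while Csf1r, Adgre1 and Mrc1 differed by 0.05, -0.19 and -0.02. Fibroblast markers summed to 21968 and 23635 in KO TAC, 23097 in KO Sham, 34229 and 35199 in WT TAC and 20521 in WT Sham, and endothelial markers to 12299 and 13558, 13062, 16111 and 16592, and 11789 in the same order of groups. Erythroid and platelet markers summed to 66834 and 72623 in KO TAC, 76867 in KO Sham, 74268 and 75039 in WT TAC and 76189 in WT Sham, sums made up mostly of the globins Hba-a1 and Hbb-bt, which differed by -0.04 and -0.11. Of these 8 markers, 4 were called lower in KO TAC hearts and none higher. Alas2, the heme synthesis enzyme of red cell precursors, read 540 and 674 in KO TAC, 791 in KO Sham, 1402 and 1647 in WT TAC and 829 in WT Sham (adjusted p = 0.00132), and the others were Slc4a1 (2.997-fold, adjusted p = 0.00121), Pf4 (1.49-fold, adjusted p = 0.0216) and Itga2b (adjusted p = 0.0229). Of 8 T, B and NK cell markers, 7 were below background on all 6 arrays, as were 10 of 12 mast cell, basophil and eosinophil markers.

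The genes whose pattern over the 6 arrays was most like the mean of the 8 kept genes were Ptpn2, Aspscr1, Angptl7, Cytip and Tmem119, with Pearson r between 0.9987 and 0.9996. The 6 points share the 2 WT TAC arrays as their high end, and 975 of 9641 other genes had an r above 0.95 and 186 above 0.99. Each of the 8 had an r between 0.916 (Ngp) and 0.994 (Retnlg) with the mean of the others.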

How the data were processed

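Illumina mouse bead arrays were read by the authors with GenomeStudio 2011.1, per the labels. What was deposited is a linear intensity for each probe. Once sorted, the arrays agreed to within 0.836%, so the intensities were already quantile normalized. Any background subtraction was not given in the sources used here. A table before normalization was not used, because its 6 signal columns could not be tied to samples. Probe genes came from the platform annotation, and 34807 of 34885 probes with 1 gene (99.8%) were found in RefSeq. Background was corrected with limma's normal-exponential fit (nec, offset 16) on 1543 olfactory, vomeronasal and taste receptor probes, followed by log2 and quantile normalization. Probes brighter than 99% of receptor probes on at least 2 of 6 arrays were kept (16688), and the brightest represented each of 9649 genes.

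Group means were fitted with limma 3.58.1 (R 4.3.3), with 2 residual degrees of freedom from the TAC pairs and 4.63 from the prior. Benjamini-Hochberg adjustment ran over all genes tested, and genes were called at an adjusted p under 0.05. The script was tested on simulated data. The exact permutation test of 2 arrays against 2 cannot go below 0.333. Errors after a plus-minus sign are SE. Where a group was below background, the fold is a lower bound, the bright group's mean against the dim group's mean of the higher of the lowest signal above background and the probe's own. The number of arrays limits the precision. The 9 genes and all lists were chosen with earlier results of these data known. From the lists, up to 4 genes with the smallest p in KO TAC vs WT TAC were named, and genes named otherwise were chosen after their values were seen. Replicate numbers did not pair the samples.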

Additional observations from a re-analysis of the deposited data

Results flagged for a closer look

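The effect of TAC differed between KO and WT by the test of that difference for 6 of the 8 genes tested, all lower. Over all genes, 8.37% were called lower and 5.62% higher. The difference is given here as TAC against sham in KO minus TAC against sham in WT on the log2 scale. The value was -5.94 for Ptx3, -5.56 for S100a8, -5.16 for S100a9, -5.14 for Retnlg, -4.38 for Lcn2 and -1.75 for Ltf. Of these, Ptx3, Retnlg and Ltf were below background in every group but WT TAC. The size of their values depended most on the offset added before log2, at -4.29, -3.87 and -0.89 with an offset of 50. S100a8, S100a9 and Lcn2 shrank less, to -5.22, -4.61 and -4.06. The 6 share the 2 WT TAC arrays, which stood apart from the other 4 for much of the transcriptome.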

How the results depend on the processing

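No difference of any of the 8 kept genes changed sign in a called comparison under the alternatives. For the 5 kept only through WT TAC, that sign followed from the filter. Leaving out 1 TAC array in turn left 1 array in its group, so sizes are given for KO TAC vs WT TAC. Without WT TAC array 1 and without WT TAC array 2, S100a8 differed by -5.21 and -4.54. S100a9 differed by -5.16 and -4.22, and Lcn2 by -4.00 and -3.90. Across all alternatives S100a8 ranged from -5.57 to -4.17. With the filter applied anew to the 5 remaining arrays, an alternative added after seeing the data, S100a8, S100a9 and Lcn2 alone were kept without either WT TAC array. Without WT TAC array 1 or without WT TAC array 2, 3 genes then passed for KO TAC vs WT TAC and 3 for WT TAC vs WT Sham, all that were tested, and in the difference of TAC effects 3 without array 1 and 2 without array 2, where S100a8 did not pass (-5.22, adjusted p = 0.052). The methods' t-test called 0 of the 8 after Benjamini-Hochberg adjustment (7 at an unadjusted p under 0.05, and 1 gene of 9649 after adjustment), with the spread of 2 arrays against 2 alone. With the replicate number as a block, 8 genes were called lower in KO TAC vs WT TAC, with 42.2% of all genes called in either direction. Same-numbered arrays had a correlation of 0.0477, which does not pair them. Without a filter S100a9 and Ltf lost the difference of TAC effects (adjusted p = 0.0509 and 0.0747), and without background correction Ltf did (0.0808). In WT TAC vs WT Sham, Csf3r lost its call without background correction, with an offset of 50, without a filter and with an intensity-dependent prior (adjusted p between 0.0507 and 0.125), and Ngp without background correction and without a filter (0.0569 and 0.0515). Differences in KO TAC vs WT TAC were smaller without background correction, -2.96 for Ptx3, -2.78 for Retnlg, -3.63 for S100a9 and -3.31 for Lcn2. With the background level at the 95th percentile, Camp was kept and all 9 genes were called lower in KO TAC. Across all settings of background, scaling, filter and probe choice, 8 or 9 genes were lower in KO TAC vs WT TAC, 6 to 8 higher in WT TAC vs WT Sham and 4 to 6 lower in the difference of TAC effects. In the same settings and comparisons, 17.8% to 43%, 11.9% to 34.2% and 3.17% to 16.7% of all features tested were called in either direction, fewest without a filter. Signal over background limits Ltf, Ngp, Camp and Csf3r, whose values in WT TAC lay just above it.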
